A study of Mus musculus with 4 samples.

Results

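MicroRNA genes formed 129 of the 14469 genes that the deposited tables assign to regions of TFIIB binding in the mouse heart. They were taken from the gene table by their symbols, which begin with Mirn in this older annotation or with Mir and a number, and Mirn208 was left out by the same rule. 1 further symbol of that form, Mir16, is described in the table as a protein gene and was not counted. The regions studied are the 166 of 20364 merged regions (0.815%) that name at least 1 of these genes, which gave 246 pairs of region and microRNA gene. Chromatin immunoprecipitation and sequencing used an antibody to Gtf2b, the protein called TFIIB, on whole hearts of C57BL/6 mice. 1 library came from the normal heart at 12 weeks, 1 from male mice of 12 weeks whose hearts were hypertrophied by 4 days of TAC, a surgical narrowing of the aorta that raises the load on the heart, and 1 from hearts of newborn mice aged 1 to 2 days. A library of input DNA had no antibody. With 1 library in each group there is no replicate error, and the columns of single libraries carry codes that match no sample label, so the values below describe the 3 ChIP libraries as the authors merged them and no group was compared with another.

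TFIIB is a general transcription factor that joins the TATA-binding protein to RNA polymerase II at promoters. Most microRNA genes are transcribed by this polymerase as long primary transcripts, from which the enzymes Drosha and Dicer cut first a short hairpin and then a short mature RNA that guides silencing complexes to messenger RNAs. Many hairpins lie inside introns of other genes and use the promoter of that host. An annotated microRNA gene in these tables is the hairpin alone, 62 to 127 bp long, so its start is the start of the hairpin and not of the primary transcript. In the heart, miR-1 and miR-133 are the best known microRNAs of muscle cells, miR-21, miR-199a and miR-214 are linked to fibroblasts and to stress, and miR-126 marks endothelium.

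The mature microRNAs whose genes carry the results below are shown first, because the seed, bases 2 to 8 from the 5′ end, is the stretch that pairs first with messenger RNAs and sorts the genes into families. The sequences are those of RefSeq (GRCm38.p6), written 5′ to 3′ with the seed in capitals. A total of 116 of the 129 genes had a mature sequence in that table. The let-7 family shares 1 seed over 8 genes in 5 separate sets of regions.
mmu-let-7a-5p: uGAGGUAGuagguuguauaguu
mmu-let-7b-5p: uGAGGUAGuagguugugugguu
mmu-let-7c-5p: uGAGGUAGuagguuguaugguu
mmu-let-7d-5p: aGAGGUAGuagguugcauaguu
mmu-let-7e-5p: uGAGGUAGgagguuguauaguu
mmu-let-7f-5p: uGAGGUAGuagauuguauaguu
mmu-let-7g-5p: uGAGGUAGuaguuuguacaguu
mmu-let-7i-5p: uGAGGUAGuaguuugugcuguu

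The miR-17-92 cluster on chromosome 14 and the Mirn106b, Mirn93 and Mirn25 cluster on chromosome 5 are paralogs, known for promoting cell proliferation. The seeds of miR-17, miR-20a, miR-93 and miR-106b are the same, as are those of miR-92a and miR-25.
mmu-miR-17-5p: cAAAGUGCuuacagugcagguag
mmu-miR-20a-5p: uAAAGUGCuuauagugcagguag
mmu-miR-93-5p: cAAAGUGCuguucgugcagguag
mmu-miR-106b-5p: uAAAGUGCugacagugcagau
mmu-miR-18a-5p: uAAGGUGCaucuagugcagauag
mmu-miR-19a-3p: uGUGCAAAucuaugcaaaacuga
mmu-miR-19b-3p: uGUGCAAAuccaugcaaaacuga
mmu-miR-92a-3p: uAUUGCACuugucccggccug
mmu-miR-25-3p: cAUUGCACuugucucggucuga

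The miR-15/16 family, known for restraining the cell cycle, had 5 genes in 3 sets of regions. The miR-26 family had 3 genes in 3 sets, and the miR-130 family, with Mirn301b, had 4 genes in 3 sets.
mmu-miR-15b-5p: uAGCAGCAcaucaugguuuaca
mmu-miR-16-5p: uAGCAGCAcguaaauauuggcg
mmu-miR-195a-5p: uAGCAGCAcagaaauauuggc
mmu-miR-497a-5p: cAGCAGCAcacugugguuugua
mmu-miR-322-5p: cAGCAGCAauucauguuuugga
mmu-miR-26a-5p: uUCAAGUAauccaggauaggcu
mmu-miR-26b-5p: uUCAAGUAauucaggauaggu
mmu-miR-130a-3p: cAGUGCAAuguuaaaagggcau
mmu-miR-130b-3p: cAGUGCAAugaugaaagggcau
mmu-miR-301a-3p: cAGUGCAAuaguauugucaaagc

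The remaining sequences are of microRNAs with high values or with known places in cardiac muscle, fibroblasts or vessels. Among them miR-132 and miR-212 have the same seed.
mmu-miR-23a-3p: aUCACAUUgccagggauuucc
mmu-miR-27a-3p: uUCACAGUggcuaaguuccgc
mmu-miR-24-3p: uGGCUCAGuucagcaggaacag
mmu-miR-21a-5p: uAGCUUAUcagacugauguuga
mmu-miR-22-3p: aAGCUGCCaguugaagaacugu
mmu-miR-132-3p: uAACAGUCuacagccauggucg
mmu-miR-212-3p: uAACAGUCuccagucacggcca
mmu-miR-199a-5p: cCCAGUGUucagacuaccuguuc
mmu-miR-214-3p: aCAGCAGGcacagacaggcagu
mmu-miR-126a-3p: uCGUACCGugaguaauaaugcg
mmu-miR-499-5p: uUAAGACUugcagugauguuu
mmu-miR-207: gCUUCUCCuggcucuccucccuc
mmu-miR-191-5p: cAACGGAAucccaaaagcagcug

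Each gene in the table has 1 peak value, which is the highest signal that the authors recorded in any library over the regions of the gene, in a unit that the table does not state. Over the 129 microRNA genes it ran from 8 to 245 with a median of 35 and quartiles of 23 and 50. Over all 14469 genes it ran from 7 to 298 with a median of 34 and quartiles of 24 and 47. The centres of these distributions thus lay 1 unit apart, and the upper ends did not coincide. Peak values above 87, the 95th percentile of all genes, were held by 12 microRNA genes (9.30%, exact 95% interval 4.90 to 15.7%) against 4.88% of all genes. These 12 genes use only 9 separate sets of regions, so they are not 12 independent cases. The intervals given here cover counting over genes or regions only.

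**Figure D1:**
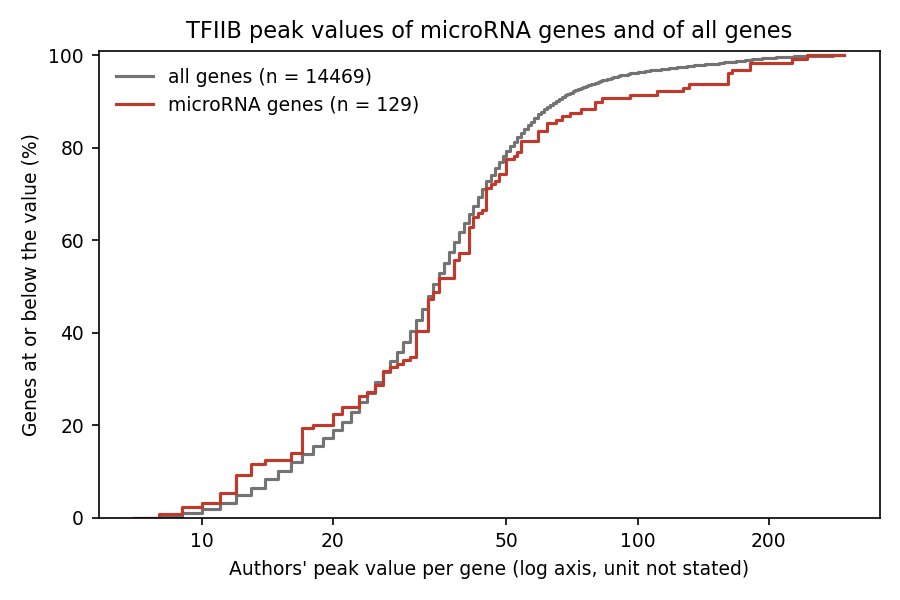
Cumulative share of genes (%, y axis) at or below each peak value (log x axis, unit not stated) for the 129 microRNA genes and for all 14469 genes. The curves lie close together around the medians of 35 and 34. Above 87 stand 9.30% of microRNA genes and 4.88% of all genes.

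Neighbouring hairpins often had the same regions, and the tables assign a region to genes up to about 10 kb away. The 129 genes had 94 distinct sets of regions, and 57 genes fell in the 22 sets that belong to more than 1 microRNA gene. A single region was assigned to 71 genes (55.0%; 52.7% of all genes), and Mirn1-1 and Mirn133a-2 had the most, 9 each. MicroRNA genes with 1 region had a median peak value of 31, beside 30 for all genes with 1 region.

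The gene of miR-1 is present in 2 copies in the mouse, each followed by a copy of miR-133a, and both copies stood among the striated muscle genes with the highest values. The peak value was 181 for Mirn1-2 and also for Mirn133a-1, 131 for Mirn1-1, 33 for Mirn133a-2, 25 for Mirn486 and 12 for Mirn499. The 6 genes therefore split into 3 far above the median of all genes and 3 below it, with a median of 82 that no single gene holds. Whole hearts hold vessel and blood cells beside muscle cells, so fewer cells of a type and less binding per cell cannot be told apart in these values. None of the 16 regions of these 6 genes contained a CpG island, whereas 50.0% of all regions did. Of these regions 12 were made of 1 interval, the authors' unit of a call in 1 library, beside 44.2% of all regions. A region of 1 interval thus rests on a call in 1 of the 3 libraries, and which one is not known.

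Mirn1-1 and Mirn133a-2 lie on the plus strand of chromosome 2, at 180123752 to 180123828 for Mirn1-1, inside the long noncoding gene EG622283, now called Mir1a-1hg, the host that carries both hairpins. The locus held 10 regions from 180119627 to 180138268, with a summed length of 15218 bp, and 8 of them were assigned to both microRNAs. The remaining region on the upstream side was assigned to Mirn1-1 and its host but not to Mirn133a-2. Since Mirn133a-2 has a value of 33, none of the shared regions can exceed 33, and the 131 of Mirn1-1 must belong to that upstream region. It spans 180119627 to 180122474, is 2847 bp long, was built from 4 intervals, covers the start of the host at 180119895, and is centred 2702 bp upstream of Mirn1-1. Its centre lies 1155 bp inside the host, beyond the 1000 bp used below to define a start-site region. The other 9 regions were made of 1 interval each. The strongest signal of this locus therefore sat in a region that includes the start of the host and neither hairpin. Where in that region the signal peaked is not given. Single calls of at most 33 followed along the host.

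The promoter of that host is shown because the region with the fixed value of 131 covers its start. It is the RefSeq window of 250 bases before to 50 bases after the gene start, chr2:180385354-180385653 on the plus strand of GRCm38.p6, with CG dinucleotides in capitals, and its start may differ from that of the older annotation in the tables.
Mir1a-1hg: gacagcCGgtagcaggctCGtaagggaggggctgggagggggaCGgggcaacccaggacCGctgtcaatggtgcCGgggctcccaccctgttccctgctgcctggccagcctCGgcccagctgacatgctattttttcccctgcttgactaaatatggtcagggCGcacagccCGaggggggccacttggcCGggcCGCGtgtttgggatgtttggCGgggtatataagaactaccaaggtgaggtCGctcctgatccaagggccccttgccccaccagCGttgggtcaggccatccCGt

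This window has a GC content of 64.3% and 15 CG dinucleotides. It does not contain the letters TATAAA on either strand, but it does hold the similar letters TATATAAG before the gene start. Only TATAAA was searched for, so its absence says nothing about such variants.

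The second copy, Mirn1-2 with Mirn133a-1, lies on chromosome 18 and on the minus strand, opposite to Mib1, a ubiquitin ligase gene that contains it. Its 3 regions were named by both microRNAs and by Mib1, and all of these genes carried the value 181. The region nearest to the hairpin was centred 57 bp upstream of Mirn1-2 and was 571 bp long with 1 interval. The region with the most intervals, 3, spans 10786821 to 10788083 and is centred 1903 bp upstream of Mirn1-2. Which of the 3 regions holds the 181 cannot be read from the tables.

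The other striated muscle genes had lower values. Mirn499, which lies in the myosin gene Myh7b, had 1 region of 1 interval and 539 bp, centred 9407 bp upstream, and a value of 12. Mirn486, antisense within the ankyrin gene Ank1, had regions with values of 25 and 15, the second centred 438 bp upstream of the hairpin. The hairpin was thus close to the weaker of these regions.

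**Figure D2:**
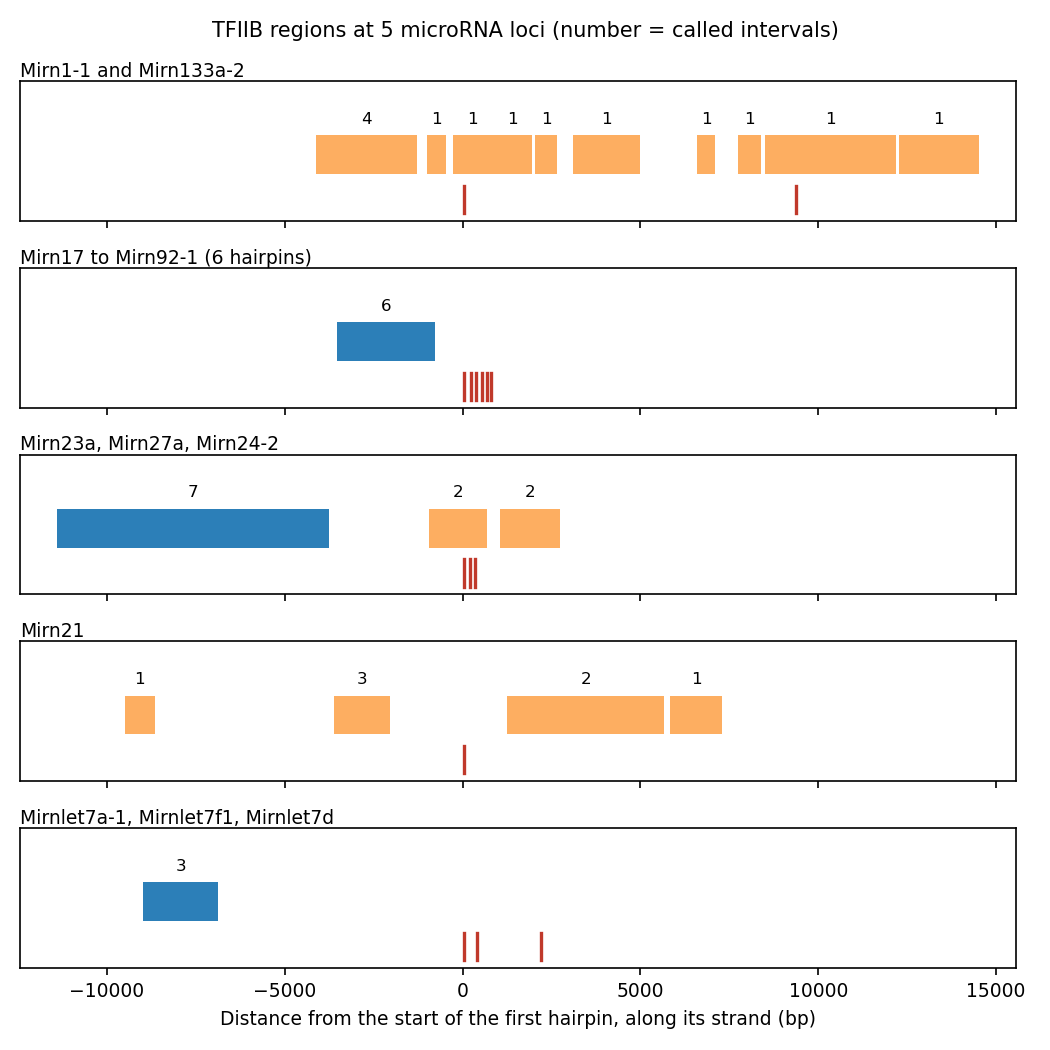
TFIIB regions (bars) and hairpins (red ticks) at 5 microRNA loci against the distance in bp from the start of the first named hairpin, along its strand. Blue bars contain a CpG island and orange bars do not, and the number above a bar is its count of called intervals. The region with the most intervals lies upstream of the first hairpin in each of the 5 loci, though the Mirn17 and Mirnlet7a-1 loci have 1 region each. The loci are chosen examples, and at Mirn497 and Mirn671, not shown, that region lies downstream.

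Genes linked to fibroblasts and stress had the next highest median among the lists that hold more than 3 genes. The peak value was 111 for Mirn21, 96 for Mirn22, 54 for both Mirn132 and Mirn212, 42 for both Mirn199a-2 and Mirn214, and 23 for Mirn199b. The median of these 7 genes was 54, and all but Mirn199b lay above the median of 34 of all genes. Mirn132 and Mirn212 share their regions, as do Mirn199a-2 and Mirn214, so these are not 7 independent cases.

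Mirn21 lies on the minus strand of chromosome 11, at 86397568 to 86397659, within the gene that the table calls Tmem49, now Vmp1, a membrane protein of autophagy. It had 4 regions, none with a CpG island. The region of 3 intervals spans 86399693 to 86401260 and is centred 2817 bp upstream of the hairpin, far from the start of Tmem49, whose gene runs from 86397367 to 86497324. A region of 2 intervals and 4414 bp was centred 3460 bp downstream, and the other 2 regions had 1 interval each. The start-site region of Tmem49 was not among the 4. Regions are assigned only up to about 10 kb away, so Mirn21 and its host could not share one. The region of 1 interval centred 6567 bp downstream is also named by Tubd1, whose value is 72, so it cannot hold the 111. Which of the other 3 regions holds it cannot be read from the tables.

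Mirn22 lies within the noncoding gene LOC100042498, now Mir22hg, on chromosome 11 at 75277217 to 75277311. Its largest region, 5671 bp long with 3 intervals and a CpG island, spans 75271519 to 75277190 and is centred 2863 bp upstream of the hairpin, 958 bp from the start of the host and 930 bp from that of Wdr81, which runs the other way. The same value of 96 was given to Mirn22, its host, Wdr81 and 2010305C02Rik. The start of 2010305C02Rik lies 119 bp from the centre of another region of Mirn22, of 1 interval, from 75281024 to 75281900. Since 2010305C02Rik has only 2 regions, this one and the largest, at least 1 of these 2 holds the 96. Which of the 2 it is cannot be read from the tables. Nor can signal in the largest region be divided between the promoters of the divergent pair. The host's promoter is shown because its start-site region is also assigned to Mirn22. The RefSeq window is chr11:75461289-75461588 on the plus strand of GRCm38.p6, with CG dinucleotides in capitals.
Mir22hg: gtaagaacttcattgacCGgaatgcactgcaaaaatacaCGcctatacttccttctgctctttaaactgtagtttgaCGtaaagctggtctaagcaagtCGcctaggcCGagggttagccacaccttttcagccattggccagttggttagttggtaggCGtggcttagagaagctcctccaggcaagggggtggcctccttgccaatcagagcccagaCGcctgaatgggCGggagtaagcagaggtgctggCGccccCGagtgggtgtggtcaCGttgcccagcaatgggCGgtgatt

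Its GC content was 54.7% and it held 12 CG dinucleotides.

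Mirn199a-2 and Mirn214 are cut from 1 noncoding transcript, Dnm3os, which runs opposite to the dynamin gene Dnm3 on chromosome 1. A single region of 1201 bp and 3 intervals, from 164147218 to 164148419, served both, centred 64 bp from the start of Dnm3os, 126 bp upstream of Mirn199a-2 and 5680 bp upstream of Mirn214. Its value is fixed at 42, and it had no CpG island. The promoter of Dnm3os is given for chr1:162217373-162217672 on the plus strand of GRCm38.p6, with CG in capitals.
Dnm3os: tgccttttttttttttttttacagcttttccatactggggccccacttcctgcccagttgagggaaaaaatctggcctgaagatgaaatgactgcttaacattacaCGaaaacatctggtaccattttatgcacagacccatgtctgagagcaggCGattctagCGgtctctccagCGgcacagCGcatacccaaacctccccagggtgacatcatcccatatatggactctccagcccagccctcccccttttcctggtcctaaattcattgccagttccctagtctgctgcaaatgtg

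It held 5 CG dinucleotides at a GC content of 48.7%. Mirn199b, antisense within Dnm1, had 2 regions of 1 interval each without an island, 1 of them centred 162 bp upstream of the hairpin.

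Mirn132 and Mirn212, known from neurons and from cardiac hypertrophy, shared 4 regions with the gene of the repressor Hic1 and with Ovca2 and others, at 54 for both microRNAs. The region of 1631 bp centred 119 bp upstream of Mirn212 and 413 bp upstream of Mirn132 had a CpG island, as did the other 3. The largest, of 4919 bp and 6 intervals, was centred 6186 bp upstream of Mirn212. Mirn210, which responds to low oxygen, had a value of 39 with 3 intervals in the nearer of its regions, 380 bp upstream of its hairpin on chromosome 7.

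The cluster of Mirn23a, Mirn27a and Mirn24-2 on the plus strand of chromosome 8, from 86732416 to 86732819, had a value of 161 in each of its 3 genes. It is known from muscle and vessel cells. Its longest region, 7637 bp from 86721018 to 86728655, was also the longest of all 166, had 7 intervals and 3 CpG islands, and was centred 7580 bp upstream of Mirn23a. The next region, of 1634 bp with 2 intervals and no island, covered the hairpins and was centred 125 bp upstream of Mirn23a. The last, again of 2 intervals, was centred 1894 bp downstream of Mirn23a. The neighbouring gene Zswim4, on the minus strand, shares all 3 regions at the same value. Its start lies 26631 bp or more from their centres, but its other end, at 86734841, lies inside the last region.

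The let-7 genes, best known for rising as cells differentiate, had values from 17 to 59 with a median of 47. Mirnlet7a-1, Mirnlet7f1 and Mirnlet7d on chromosome 13 had 1 region in common and no other, and it named no other gene. This region of 2115 bp, from 48640502 to 48642617, had 3 intervals, a CpG island and a value fixed at 59. It was centred 7919 bp upstream of Mirnlet7a-1, so the hairpins were named through a region that covers none of them. Mirnlet7e shared its regions with Mirn99b and Mirn125a on chromosome 17, with values fixed at 50 for the region centred 3034 bp upstream of Mirnlet7e and at 41 for that centred 7812 bp downstream. Mirnlet7i had a value of 43 in a region centred 63 bp upstream of its hairpin, and Mirnlet7g a value of 44 in a region at the start of its host Wdr82, 7573 bp away. Mirnlet7c-2 and Mirnlet7b, at 17, were the lowest of the family. Their 3 regions had 1 interval each, no island and no other gene.

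The 6 genes of the miR-17-92 cluster, from Mirn17 to Mirn92-1, also shared a single region that named no other gene. It spans 115439371 to 115442103 on chromosome 14, had 6 intervals and a CpG island, was centred 2155 bp upstream of Mirn17 and 2911 bp upstream of Mirn92-1, and had a value fixed at 33. The paralogs Mirn106b, Mirn93 and Mirn25 lie in an intron of Mcm7, a subunit of the replicative helicase, and had a value of 45. Their 3 regions were at the starts of Mcm7 and of the neighbours Cops6 and Zfp113, and the nearest to Mirn106b was centred 4701 bp downstream of it. The region at the start of Mcm7 is also named by Ap4m1, whose value is 31, so it cannot hold the 45. Which of the other 2 regions holds the 45 cannot be read from the tables. MicroRNA genes with the same seed thus had regions of different kinds, a region that named microRNAs alone on chromosome 14 and regions at the starts of protein genes on chromosome 5.

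Other families spread as widely. In the miR-15/16 family Mirn15b and Mirn16-2 had a value of 26 at the start of their host Smc4, a condensin subunit, Mirn322 on chromosome X had 41, and Mirn195 and Mirn497 had 45. In the miR-26 family, whose hosts are CTD phosphatase genes, Mirn26b in Ctdsp1 had 47, while Mirn26a-1 in Ctdspl and Mirn26a-2 at Ctdsp2 had 11 each in regions of 1 interval. Of the 3 genes Mirn26b alone shared the start-site region of its host. The start of Ctdspl lies too far from Mirn26a-1 for its region to be assigned, and Ctdsp2 had no start-site region. Of the miR-130 family Mirn301 had 33, Mirn130b and Mirn301b had 23 in a region they share, and Mirn130a had 14. Genes of 1 seed family thus had values well apart from each other, such as 47 for Mirn26b and 11 for Mirn26a-1.

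**Figure D3:**
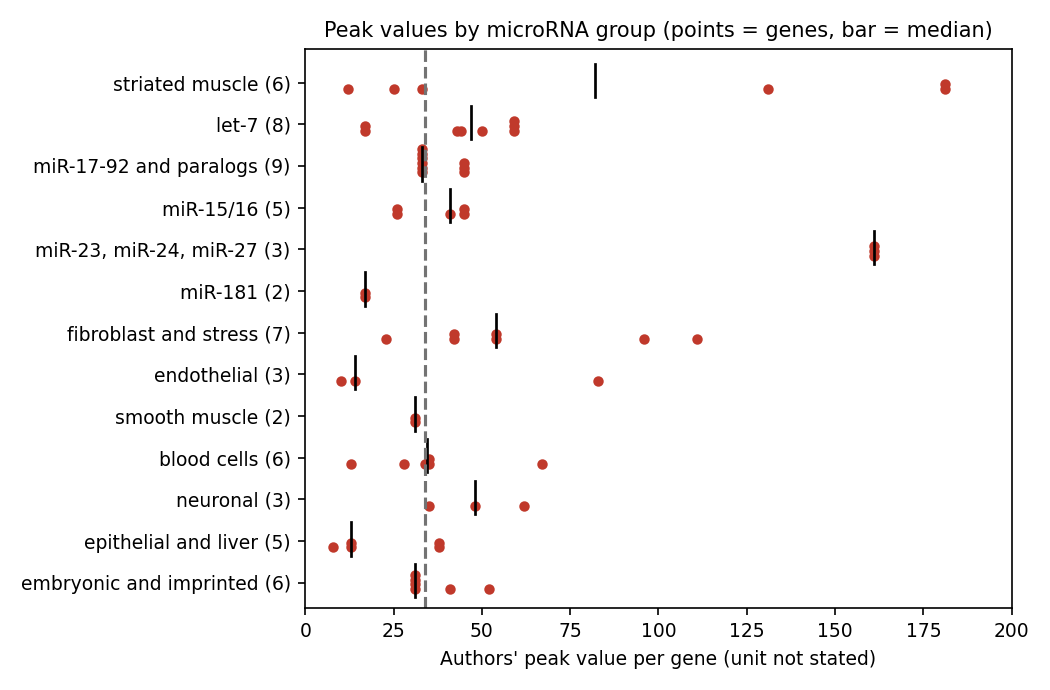
Peak value (x axis, unit not stated) of each microRNA gene in the lists that have members in the table, with the number of genes in parentheses. Points are genes, points at the same value are stacked, black bars are medians, and the dashed line is the median of 34 of all genes. The miR-23/24/27 genes at 161 and 3 of the 6 striated muscle genes lie farthest to the right.

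Genes linked to vessels and blood had medians of 14 over 3 endothelial, 31 over 2 smooth muscle and 34.5 over 6 blood cell genes. Among the endothelial genes Mirn126, inside the endothelial gene Egfl7, had 83, Mirn130a had 14 and Mirn10a had 10. Mirn126 had 3 of the 8 regions of Egfl7, with 3 intervals in the region centred 7766 bp upstream and 1 interval in the region centred 349 bp downstream of its start. Mirn10a lies by Hoxb4 and had 2 regions of 1 interval. Mirn143 and Mirn145, a pair of smooth muscle, had a value of 31 and 6 regions on chromosome 18, all without another gene and without a CpG island. The region centred 48 bp from the start of Mirn145 had 3 intervals.

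Of the blood cell genes Mirn150, of lymphocytes, had 67, Mirn144 and Mirn451, of red cells, had 35, Mirn146b had 34, Mirn142 had 28 and Mirn223, of myeloid cells, had 13. The only region of Mirn144 and Mirn451 lay at the start of Eral1, 7512 bp from the start of Mirn144 and 7347 bp from that of Mirn451. Mirn142 had 3 regions, of which 1 was centred 17 bp inside its hairpin with 1 interval.

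Genes known from other tissues were also present. The epithelial and liver genes had a median of 13 over 5 genes, from 8 for Mirn203 to 38 for Mirn141 and Mirn200c, whose only region lay at the starts of Emg1 and Phb2. The neuronal genes had 62 for Mirn7-1, 48 for Mirn219-1 and 35 for Mirn7-2. The starts of Hnrpk, Ring1 and Isg20l1 lay at regions of these 3 genes. In the embryonic and imprinted list Mirn302 and its 3 neighbours of the same list had 31, again at a shared region, here at the start of Larp7, 7940 bp from Mirn302b, Mirn345 had 41 and Mirn335, in the imprinted gene Mest, had 52. The miR-181 genes Mirn181c and Mirn181d had 17 each, in 2 regions of 1 interval. No gene of the miR-29, miR-30 or miR-34 lists is among the 129.

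Many of the regions of microRNA genes were centred away from the hairpin. Start-site regions were defined as those centred no more than 1000 bp from the annotated start. By this measure 43 of 129 microRNA genes had a start-site region (33.3%, 25.3 to 42.2%), beside 76.5% of all genes. Other genes of at most 200 bp had one in 5 of 24 cases (20.8%, 7.13 to 42.2%). The low share is therefore also seen in the few other short genes of the table. The region nearest to a hairpin start was centred at a median distance of 2695 bp, from 17 bp for Mirn142 to 10412 bp for Mirn449b. Genes with a start-site region had a median peak value of 42, and those without one had 33.

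The side of the hairpin on which regions lay was close to that seen for other genes. Of 246 pairs 151 were upstream (61.4%, 55.0 to 67.5%), 93 were downstream (37.8%) and 2 had their centre within the hairpin. Among the pairs of other genes 32.7% were upstream, 22.8% downstream and 44.5% within the gene. Among pairs centred outside the gene, 151 of 244 (61.9%, 55.5 to 68.0%) were upstream for microRNA genes and 58.9% for other genes. The largest gap between a region and a microRNA gene assigned to it was 9983 bp.

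**Figure D4:**
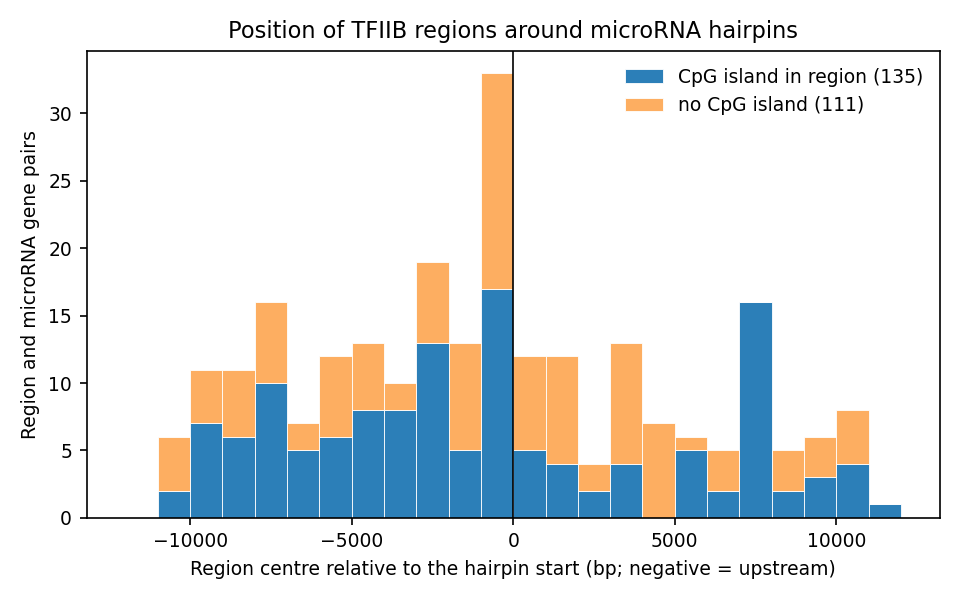
Number of pairs of region and microRNA gene (y axis) by the distance in bp from the hairpin start to the region centre (x axis, negative is upstream), in bins of 1000 bp. Blue counts the 135 pairs whose region has a CpG island and orange the 111 whose region has none. The tallest bin is the 1000 bp upstream of the start, and 151 of 246 pairs lie upstream.

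Each region was then sorted by the starts near its centre. Of the 166 regions 20 were centred at the start of a hairpin only, 20 at the starts of a hairpin and of another gene, 52 at the start of another gene only and 74 at neither. The start of a gene that is not a microRNA gene was thus within reach in 72 regions (43.4%, 35.7 to 51.3%), beside 49.0% of all regions and 57.5% of regions assigned to any gene that were centred at the start of some gene. Among the 129 genes, 49 had all their regions at another gene's start (38.0%), 25 had some and 55 had none. The median peak values of these 3 classes were 35, 42 and 28. Of 39 microRNA genes with no region centred within 5000 bp, 21 had regions at another gene's start only, among them Mirn144 and Mirn451.

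CpG islands and single intervals went with these classes. A CpG island was present in 94 of 166 regions (56.6%, 48.7 to 64.3%), beside 50.0% of all regions and 56.0% of the 17351 regions assigned to any gene. The share was thus near that of regions assigned to genes at large. It was present in 4 of 20 regions at a hairpin start only (20.0%, 5.73 to 43.7%), in 17 of 20 at both kinds of start (85.0%, 62.1 to 96.8%), in 45 of 52 at another start only (86.5%, 74.2 to 94.4%) and in 28 of 74 at neither (37.8%, 26.8 to 49.9%). Regions at a gene start of any kind had an island in 83.8% of cases and other regions in 17.6%. The regions centred at a hairpin only were thus close in this share to regions away from starts, and those that also lay at another gene were close to start-site regions at large.

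A single interval made up 61 of 166 regions (36.7%, 29.4 to 44.6%), beside 44.2% of all regions and 40.0% of regions assigned to any gene. The share was 60.0% (36.1 to 80.9%) at a hairpin start only, 5.0% at both kinds of start, 26.9% at another start only and 45.9% at neither, against 19.7% of all start-site regions and 67.7% of other regions. All regions of a gene had 1 interval in 31 of 129 microRNA genes (an interval of 16.9 to 32.3%) and in 16.7% of all genes. Regions at a hairpin start only were also the shortest, with a median of 934.5 bp at a hairpin start only, 1538.5 bp at both, 1615 bp at another start only and 1337 bp at neither. The 166 regions had a median length of 1373.5 bp and all regions one of 1155 bp. Islands, intervals, length and value move together in these tables, and no one of them can be set apart from the others here.

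**Figure D5:**
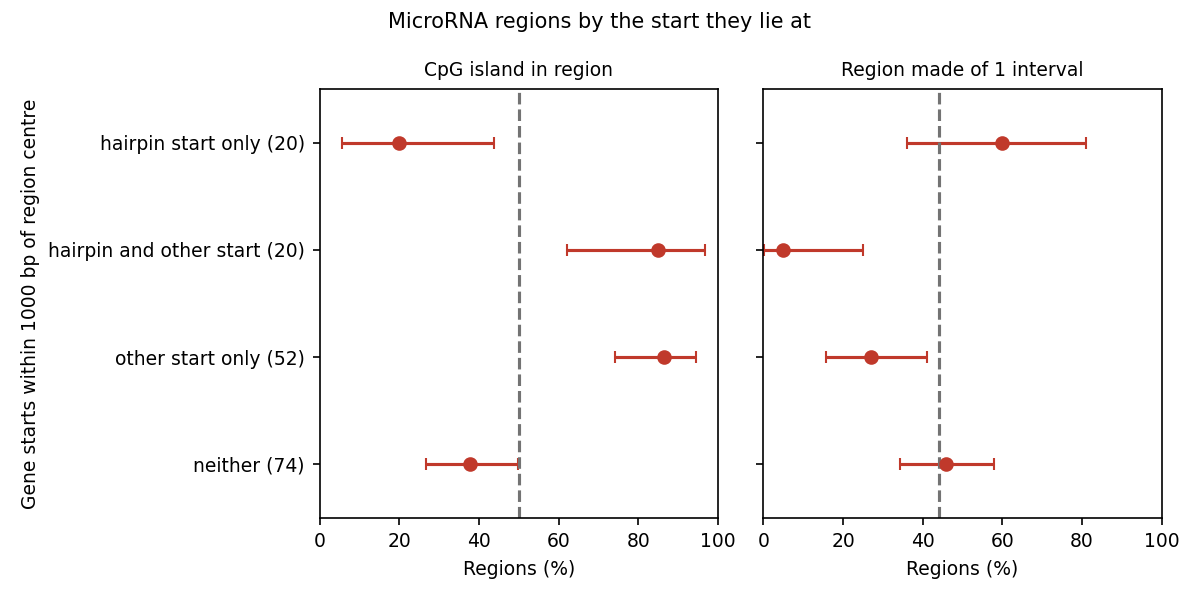
Share (%) of the 166 regions with a CpG island (left) and of those made of 1 interval (right), by the gene starts within 1000 bp of the region centre, with the number of regions in parentheses. Bars are exact 95% intervals over regions and dashed lines are the shares of all 20364 regions, 50.0% and 44.2%. Regions at a hairpin start only have the lowest share of islands, 20.0%, and the highest share of single intervals, 60.0%.

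A region's own value could be fixed for 65 of the 166 regions, with a range of 8 to 226 and a median of 33, beside 31 over all regions that could be fixed. A value is fixed where only 1 region of a gene can hold the value of that gene, given that no region exceeds the lowest value among the genes that name it. Values were fixed for 6 of 20 regions at a hairpin start only, with a median of 13 and a range of 8 to 65. The 13 of 20 fixed at both kinds of start had a median of 42. The 22 of 52 at another start only had one of 34.5 and the 24 of 74 at neither one of 20. These medians leave out the regions that could not be fixed. At a hairpin start only, the upper bounds of those regions ran from 17 for Mirnlet7c-2 to 181 for Mirn1-2, so their values may be higher or lower than the medians given. Fixed regions with a CpG island had a median of 38 (n = 47) and those without one of 14 (n = 18), beside 34 and 17 over all regions. Fixed regions of 1 interval had a median of 12 and none exceeded 35, and those of 3 or more intervals had a median of 43.5 and none was below 14. The 131 of the region covering the start of Mir1a-1hg, with no island, was the highest of the fixed regions without one. The next was the 42 at the start of Dnm3os.

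Only 17 regions named microRNA genes and no other gene (10.2%), and these bear on 18 genes. They were shorter, at a median of 952 bp, with an island in 4 of 17 (23.5%) and 1 interval in 9 of 17 (52.9%). The 149 shared regions had a median of 1426 bp, an island in 60.4% and 1 interval in 34.9%. The 4 exclusive regions with an island were those of the miR-17-92 cluster, of the let-7a-1 cluster, of Mirn148a, whose region is centred 990 bp upstream of the hairpin at a value of 17, and the region centred 593 bp upstream of Mirn193. Mirn125b-2, at 12, and Mirn365-2, also at 12, had 1 exclusive region each of 1 interval without an island.

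Hosts were examined because many intronic microRNAs are known to use the promoter of the gene around them. On the same strand as another gene in the table lay 50 microRNA genes, 16 lay opposite to one only, 3 overlapped one in part and 60 overlapped none. Of the 50, 37 (74.0%) had a host with a start-site region, beside 76.5% of all genes with one. In 29 of 50 (58.0%, 43.2 to 71.8%) the microRNA gene shared that region. A region farther than about 10 kb from a hairpin is not assigned to it, so hosts with a distant start could not share theirs. The share of 58.0% thus depends on the distance to the host's start and does not measure use of its promoter. Examples are Mirn207 in the chaperone gene Dnaja1 at 165, Mirn677 in Atp5b, a subunit of ATP synthase, at 74, Mirn423 in Ccdc55, now Nsrp1, at 62 and Mirn186 in Zranb2 at 38, where the region is centred 9918 bp upstream of the hairpin. The peak value equalled that of the host in 37 of 50, and genes that share all their regions have 1 value by construction. Hosts whose start-site region was not shared included Tmem49 of Mirn21 and Egfl7 of Mirn126, whose starts lie more than 10 kb from the hairpin. Myh7b of Mirn499 had no start-site region.

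High values were also shared with neighbours that are not hosts. Mirn320, at 127, lies head to head with Polr3d, a subunit of RNA polymerase III, and their only region, of 1881 bp and 3 intervals, was centred 193 bp upstream of Mirn320 and 131 bp from the start of Polr3d. Mirn191 and Mirn425, at 80, had 4 regions at the starts of Impdh2, 4733401H18Rik, Dalrd3 and Wdr6. Mirn484, at 70, was 153 bp from a region centred 198 bp from the start of 4921513D23Rik, now Marf1. In each of these pairs the tables give 1 value to both genes.

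Of the 4 microRNA genes with no match in RefSeq, 3 lay at genes that the tables list as noncoding RNAs of other kinds. Each of the 3 has the same value as that gene. Mirn801, the highest of all members at 245, overlaps Rnu11, the U11 small nuclear RNA of the minor spliceosome, and a region of 3 intervals was centred 75 bp upstream of it. The neighbour Taf12 also has 245, and another region of Mirn801, of 3 intervals, is centred 174 bp from the start of Taf12. Which of these 2 regions holds the 245 cannot be read from the tables. Mirn699, at 35, lies in Rmrp, the RNA of RNase MRP, and Mirn685, at 53, lies antisense in Rpph1, the RNA of RNase P. Mirn715, at 226, had 1 region of 6045 bp and 5 intervals on chromosome 17, from 39979835 to 39985880, shared only with LOC627695. That gene is listed as a hypothetical protein and had no match in RefSeq either, so what lies at this region was not settled.

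The promoters of the genes at whose start a microRNA region was centred were read for the letters TATAAA, or TTTATA on the other strand, each promoter counted once. In RefSeq windows of 300 bases, 3 of 66 such promoters (4.55%) held them, those of Ccdc107, Impdh2 and Ska2, beside 14.2% of 27025 promoters. These 66 windows had a median GC content of 61.2% and 23.5 CG dinucleotides, beside 52.7% and 7 over all windows. A match or its absence describes these letters only.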

How the data were processed

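ChIP, library construction and sequencing were done by a service company, per the labels' protocols, and the genome build is mm9, per the submitters' processing notes. No source used here names the aligner, the caller of intervals, thresholds, scaling or how the input library was used. The authors deposited 2 tables, of merged regions and of genes. Each gene's peak value is a signal, deposited by the authors without a decimal or a unit and taken as the maximum over libraries and regions, so it can grow with the number of regions and with unequal depth. Total reads are unknown. The 15 columns of single libraries match no sample label and were not used, so the planned values by library were not computed.

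Regions were joined to genes by the deposited names, distances and counts with pandas 2.3.3, with a start-site distance of 1000 bp, and exact (Clopper-Pearson) 95% intervals came from scipy 1.17.1. Region values were bounded by the lowest peak value among the genes naming the region. The code was run on simulated gene values that were themselves maxima over the assigned regions. That run checks the code only, and whether the deposited peak values are such maxima was not tested. Genes and regions are not replicates, and no test was run. RefSeq tables (GRCm38.p6) gave current symbols and sequences only: 125 of 129 microRNA gene IDs and 171 of 182 IDs of genes sharing a region matched. Members and lists were chosen with earlier results of these data known. Values are given for the members of the lists, for high peak values, for genes with a start-site region or regions of their own, and for the genes that share regions with them. Other start-site distances, region sets and gene sets were tried as alternatives.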

Additional observations from a re-analysis of the deposited data

How the results depend on the processing

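Of 20 alternative settings 13 left the value within its counting interval and 7 did not. Some of the 7 changed the side of the background on which a value lay. The share of microRNA genes with a start-site region, 33.3%, was 27.9% at 500 bp and 69.8% at 5000 bp. The share of regions at another gene's start, 43.4%, was 38.0% at 500 bp and 60.8% at 5000 bp. Among regions that name no other gene, the CpG island share was 23.5%, below the 50.0% of all regions where the share over all 166 was above it, the share of 1 interval was 52.9%, above 44.2% where that over all 166 was below it, and the median length was 952 bp, below 1155 bp where that over all 166 was above it. Among regions of 2 or more intervals the CpG island share was 75.2%. The median peak value was 31 over genes with 1 region, beside 30 for all genes with 1 region. Without the 4 genes that RefSeq did not match, an alternative chosen after seeing the data, the start-site share was 32.0% and the median peak value 34. Without the Mirn1-1 and Mirn133a-2 locus, also chosen after seeing the data, the share of 1 interval was 33.3%. The causes were not tested. No paired analysis was possible because each group has 1 library and the columns of single libraries map to no sample. The depth of the libraries is unknown, so a microRNA gene without a region is not shown to lack TFIIB. The hairpin start is not the transcript start, and a peak value shared by neighbours cannot be divided between them.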
